A study of Mus musculus with 24 samples.

Results

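The nuclear genome encodes most subunits of the mitochondrial respiratory chain, and 80 of the 12615 genes in the count table carry the symbols of such subunits. They were chosen by symbol alone, as genes named Nduf with a letter a, b, c, s or v and a number (NADH dehydrogenase, complex I), Sdh with a letter a to d (succinate dehydrogenase, complex II), Uqcr (cytochrome bc1, complex III), Cox with a number from 4 to 8 (cytochrome c oxidase, complex IV) and Atp5 (ATP synthase, complex V). These symbols matched 84 genes, and 4 of them, annotated by name as pseudogenes (Atp5l-ps1, Atp5l-ps2, Atp5l2-ps and Ndufb1-ps), were left out. The families themselves were chosen with earlier results of these data known. Complex I had 37 members (Ndufa4 is counted there by its symbol, although its protein is now assigned to complex IV), complex II had 4, complex III had 8, complex IV had 15 and complex V had 16. Another 8 symbols of these families were not analysed here, among them Cox4i2, Cox6b2, Cox8c and Ndufa4l2.

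Brown fat (BAT) RNA from 24 mice was read by 3′ tag sequencing, in which a transcript gives its tag close to the poly(A) tail whatever its length. The labels form 4 groups of 6 mice, Ucp1CreERT2 negative (Cre-) and Ucp1CreERT2 positive (BATdKO) mice at each of 2 temperatures, and all 4 groups carry the TBLR1 fl/fl and TBL1 fl/fl alleles and received tamoxifen. The recombinase is driven by the Ucp1 promoter, so deletion is limited to cells that use this promoter after tamoxifen, and RNA of every other cell in the tissue keeps both genes. Mice raised at 22°C went straight to 30°C for 4 days, or to 8°C for 6 days by way of 1 day each at 18°C, 16°C and 12°C. For the cold groups the study's methods give 3 days at 8°C. The labels call the mice female and put tamoxifen at an age of 5 years, where the study's methods have weeks and its figure legend has males, and the temperature protocol began 3 weeks after the last injection. Each library is a separate mouse, and mice are numbered here within a group in the order of the labels. The library codes in the labels fall in a block for each temperature with the genotypes mixed inside it, so temperature and block of libraries cannot be told apart.

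The respiratory chain takes electrons from NADH at complex I and from succinate at complex II, passes them through complex III and cytochrome c to oxygen at complex IV, and stores the energy as a proton gradient that complex V uses to make ATP. In brown adipocytes the uncoupling protein UCP1 lets protons back without ATP synthesis, so that respiration yields heat. A few subunits exist as paralogous forms that differ between tissues. COX7A1 and COX8B are forms found mainly in heart, skeletal muscle and brown fat, COX6A2 is the form of heart and skeletal muscle, and COX7A2, COX8A and COX6A1 are widespread.

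The libraries held from 699703 counts (mouse 4 of the Cre- 30°C group) to 11527643 counts. They did not look like brown fat alone. Albumin (Alb) lay between 5686 and 14390 CPM (counts scaled to a fixed library total, with TMM factors) in all 24 libraries, and 22 genes of the major urinary proteins, which are made in liver, took 10.92 to 16.52% of all counts. The 6 hepatocyte markers Alb, Apoa1, Apob, Ttr, Serpina1a and Fgb summed to 21910 to 32250 CPM, none of them was at 0 anywhere, and their summed range at 30°C was 22540 to 32020 CPM in Cre- and 21910 to 27980 CPM in BATdKO mice, against 24430 to 29150 and 25180 to 32250 CPM at 8°C. The 11 brown adipocyte markers summed to 678.2 to 4200 CPM in Cre- and 1229 to 4142 CPM in BATdKO mice at 30°C, and to 2586 to 4810 and 2920 to 5677 CPM at 8°C, with Dio2 at 0 in some libraries. Most respiratory chain genes are transcribed in hepatocytes as well as in brown adipocytes, so the part of either cell type in the levels below was not tested. In such bulk RNA, fewer cells of a type and less RNA per cell cannot be told apart.

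The 18 measured skeletal muscle fibre markers summed to 12.3 to 9758 CPM in Cre- 30°C, 39.12 to 746.7 CPM in BATdKO 30°C, 23.21 to 1736 CPM in Cre- 8°C and 13.3 to 182.0 CPM in BATdKO 8°C libraries, and 15 of them, among them Acta1, Myh1, Myh2, Myh4, Myh7 and Ckm, were at 0 in some library. The targeted genes were not lower in the groups labelled BATdKO, and whether their 3′ tags lie in the deleted part was not tested. Tbl1xr1 was at 18.16 to 24.59 CPM in Cre- and 33.75 to 44.33 CPM in BATdKO mice at 8°C and Tbl1x at 38.68 to 43.81 and 42.41 to 63.61 CPM, and both were called higher in the libraries labelled BATdKO. The mouse numbered 6 in each 30°C group stood apart from its group, with Ucp1 at 547.9 CPM and Tbl1xr1 at 38.61 CPM in the Cre- group and 84.71 and 16.97 CPM in the BATdKO group. Genotype names below are therefore those of the labels.

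All 80 genes passed the filter on low counts. Their mean level over the 24 libraries ran from 2.384 to 779.6 CPM with a median of 188.0 CPM. The most abundant was Cox6a1 and the least abundant Cox5a, and Cox5a, Uqcrc2 and Ndufb6 had mean counts of only 17.42, 17.88 and 41.42 per library. Together the 80 genes took 1.65 to 2.36% of the counts of a library. The spread between mice of a group, as the SD of log2 CPM, had a median of 0.194 over the genes and was widest for Cox6a2 (2.93), Ndufb6 (1.89) and Cox5a (1.73). Ndufb4c and Cox6c2 are annotated as processed pseudogenes and may share reads with Ndufb4 and Cox6c. Exons of 5 members overlap another gene on their own strand and those of 25 overlap one on the other strand, and the sources do not say whether reads were counted by strand. For 10 of the members an exon of another gene lies in the last 500 genomic bases, introns included. In Uqcrh and Cox7c it overlaps no exon of the member.

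Cold exposure went with higher levels of chain genes in both labelled genotypes. In Cre- mice 12 of 80 members were called higher at 8°C than at 30°C (15.0%, where 5.57% of the 12485 genes tested were called higher) and 1 was called lower (3.59% of all genes), by edgeR's quasi-likelihood test at a Benjamini-Hochberg adjusted p under 0.1. In BATdKO mice 12 members were called higher (15.0%, against 3.76% of all genes) and 0 lower (against 3.31%). No member was at an unadjusted p under 0.05 in the lower direction in BATdKO mice, and DESeq2 called 11 higher and 0 lower there. By edgeR 1081 of all genes tested were at that unadjusted level in the lower direction in BATdKO mice. The median log2 fold change of the 80 genes was 0.16 in Cre- and 0.21 in BATdKO mice, beside -0.02 and 0.00 for all genes tested, and 68 and 71 members had positive values. Of 11 brown adipocyte markers 3 (Ucp1, Dio2 and Elovl3) were called higher and 1 (Adipoq) lower in each genotype over the same comparison, and of 5 endothelial markers 3 were called higher in Cre- and 2 in BATdKO mice. Of 6 hepatocyte markers 0 were called in either genotype by edgeR or DESeq2, with median log2 fold changes of -0.07 and 0.07 and 1 at an unadjusted p under 0.05, in BATdKO mice. Of 6 macrophage markers 0 were called by either tool, with 1 at an unadjusted p under 0.05 by edgeR, in BATdKO mice. Of 18 skeletal muscle markers 4 (Actn3, Eno3, Myoz1 and Myl1) were called lower in Cre- mice by edgeR's quasi-likelihood test, with log2 values from -2.87 to -1.85 and adjusted p from 0.0517 to 0.0998, and 0 by DESeq2, with 11 and 5 at an unadjusted p under 0.05. In BATdKO mice 0 of the 18 were called by either tool, with 1 unadjusted by edgeR and 0 by DESeq2, and all 18 values were negative in both genotypes (medians -2.23 and -2.13). The part of these other changes in the differences of chain genes was not tested.

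These calls depend on the scaling. When counts were scaled by total counts the median of all genes moved to -0.20 in Cre- and -0.19 in BATdKO mice, and 4 members were then called higher and 6 lower in Cre- mice and 2 higher and 3 lower in BATdKO mice. Of all genes 3.47% were called higher and 22.6% lower in Cre- mice under that scaling, and 2.04% higher and 20.5% lower in BATdKO mice. The distance of the members' median from that of all genes was 0.19 and 0.21 under that scaling and 0.18 and 0.21 under TMM. A change of scaling shifts the log2 values of all genes nearly alike, so this distance cannot show whether the calls are robust to it. Mitochondrially encoded transcripts, which took 19.34 to 32.80% of counts at 30°C and 26.70 to 37.90% at 8°C, enter the total. With these left out of the total, 9 members were called higher and 2 lower in Cre- mice (509 and 665 of 12439 genes). In BATdKO mice 2 were then called higher and 0 lower (261 and 1317 of 12439 genes).

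**Figure D1:**
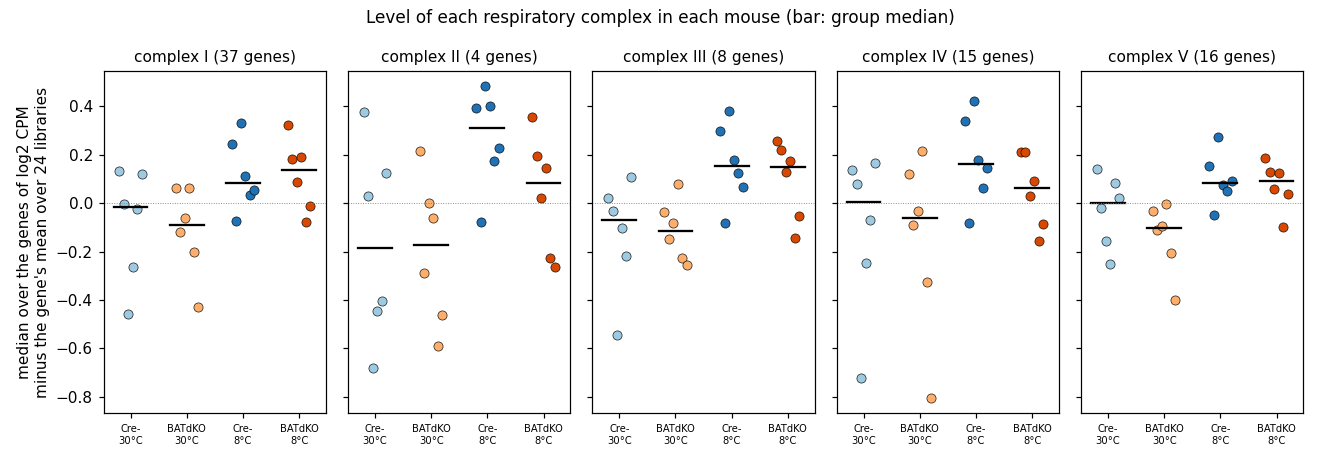
Each point is a mouse, and the vertical axis gives the median over the genes of a complex of log2 CPM minus the mean of that gene over all 24 libraries, with the bar at the group median. Group medians lay higher at 8°C than at 30°C for all 5 complexes under TMM scaling, the ranges overlapped, and in complexes I and IV the lowest points belong to mouse 3 of the Cre- 30°C and mouse 6 of the BATdKO 30°C group.

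The plot of complex levels by mouse shows how far single mice set these differences. Over all 80 genes the median position was lowest in mouse 3 of the Cre- 30°C group (-0.45), which also had the lowest brown adipocyte sum of the 24 libraries (678.2 CPM) and the highest muscle sum (9758 CPM). The next lowest was mouse 6 of the BATdKO 30°C group (-0.39), with the next lowest brown adipocyte sum (1229 CPM). Without mouse 3 of the Cre- 30°C group 7 members were called higher in the Cre- comparison (4.12% of all genes), and the same number was called without both muscle-rich mice (1 and 3) of that group (3.9% of all genes). Without both mice numbered 6 at 30°C, left out after their values had been seen, 19 members were called higher and 2 lower in Cre- mice and 10 higher in BATdKO mice. The shares of all genes were then 7.55% higher and 5.66% lower in Cre- mice and 3.09% higher and 3.04% lower in BATdKO mice.

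Complex I gave 5 of the 12 rises in Cre- mice and 7 of the 12 in BATdKO mice, with medians over its 37 genes of 0.17 and 0.24. Ndufa11, an accessory subunit of the membrane arm, lay at 98.41, 119.0 and 128.2 CPM (lowest, median and highest) in Cre- 30°C, 126.0, 140.3 and 152.8 CPM in Cre- 8°C, 101.8, 112.5 and 124.2 CPM in BATdKO 30°C and 127.9, 142.4 and 151.2 CPM in BATdKO 8°C mice. Every cold mouse labelled BATdKO was above every warm one, and in Cre- mice the ranges met only at their edges. The log2 rise was 0.25 (SE 0.0687, adjusted p = 0.0229 by edgeR's quasi-likelihood test) in Cre- and 0.32 (SE 0.0685, adjusted p = 0.00537) in BATdKO mice.

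Ndufa12, Ndufs4 and Ndufs8 also rose in both genotypes. Ndufs8, a core subunit that carries iron-sulfur clusters of the electron path, had a median of 83.18 CPM in Cre- 30°C (61.51 to 96.88) and 97.02 CPM in Cre- 8°C mice (91.49 to 119.7), and of 73.99 (63.54 to 78.68) and 92.10 CPM (83.14 to 99.05) in BATdKO mice. The BATdKO ranges did not overlap and the Cre- ranges did. Log2 changes were 0.28 and 0.31 for Ndufs8, 0.34 and 0.30 for Ndufa12, an accessory subunit, and 0.41 and 0.37 for Ndufs4, an accessory subunit whose loss causes mitochondrial disease, in Cre- and BATdKO mice respectively. Ndufv2, a core subunit of the NADH-oxidizing module, was called higher in Cre- mice (0.47, SE 0.137, adjusted p = 0.0377 by edgeR's quasi-likelihood test) and had 0.33 (adjusted p = 0.192) in BATdKO mice. Ndufa9, Ndufb7 and Ndufv3, all accessory, were called higher in BATdKO mice, by 0.34, 0.24 and 0.44. Among other core subunits, Ndufs3 had 0.11 and 0.11, Ndufs7 -0.13 and 0.04 and Ndufv1 0.13 and -0.03 on the log2 scale, and none of these was called.

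The promoters of 3 complex I genes called higher in both genotypes are shown because they hold 3 different motifs known from genes of mitochondria. They were picked for these motifs. The window of Ndufa12, also called higher in both genotypes, holds none of them. The windows run from 250 bases before to 50 bases after a RefSeq start on GRCm38.p6, read 5′ to 3′ on the strand of the gene. Capitals mark GCATGCGC (the core of the NRF1 element, here overlapping its own reverse complement) in Ndufa11 at chr17:56717512-56717811 (plus strand), AAGATGGCG (YY1) in Ndufs4 at chr13:114388045-114388344 (minus strand), and the reverse complement of CCGGAAG (an ETS element of the kind GABPA binds) in Ndufs8 at chr19:3912725-3913024 (minus strand).
Ndufa11: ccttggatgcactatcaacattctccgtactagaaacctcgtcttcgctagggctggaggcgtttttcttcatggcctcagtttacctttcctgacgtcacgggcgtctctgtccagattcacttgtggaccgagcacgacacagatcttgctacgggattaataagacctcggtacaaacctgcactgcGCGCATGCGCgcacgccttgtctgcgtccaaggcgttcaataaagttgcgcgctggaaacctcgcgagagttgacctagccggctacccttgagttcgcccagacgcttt
Ndufs4: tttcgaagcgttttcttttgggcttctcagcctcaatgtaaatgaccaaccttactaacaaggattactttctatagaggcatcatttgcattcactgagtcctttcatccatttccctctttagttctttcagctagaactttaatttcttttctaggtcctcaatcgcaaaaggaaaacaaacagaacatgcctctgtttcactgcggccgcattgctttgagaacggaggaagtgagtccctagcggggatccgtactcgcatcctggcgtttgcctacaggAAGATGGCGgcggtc
Ndufs8: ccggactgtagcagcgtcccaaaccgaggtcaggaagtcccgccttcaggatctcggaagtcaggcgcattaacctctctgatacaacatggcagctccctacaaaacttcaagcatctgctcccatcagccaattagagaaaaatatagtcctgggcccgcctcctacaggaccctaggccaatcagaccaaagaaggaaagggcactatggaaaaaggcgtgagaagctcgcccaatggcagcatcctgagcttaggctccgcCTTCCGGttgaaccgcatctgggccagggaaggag

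Complex II had positive values for all 4 genes in both genotypes, with medians of 0.33 and 0.23. Sdha, the flavoprotein that oxidizes succinate, was the only one called, and only the Cre- comparison passed the test. Its levels were 214.9, 294.7 and 328.6 CPM in Cre- 30°C and 293.4, 351.1 and 411.9 CPM in Cre- 8°C mice. The ranges overlapped, and the log2 rise was 0.32 (SE 0.105, adjusted p = 0.0728 by edgeR's quasi-likelihood test), beside 0.21 (adjusted p = 0.301) in BATdKO mice. Sdhb, the iron-sulfur subunit, had 0.17 in both genotypes, and the membrane anchors Sdhc and Sdhd had 0.34 and 0.76 in Cre- mice with SE of 0.305 and 0.345. Sdhd was scarce, at 2.703 to 21.35 CPM over the 24 libraries.

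Complex III had 8 genes, 3 of them called higher in Cre- and 1 in BATdKO mice, with medians of 0.34 and 0.20. Uqcrh, the hinge protein, which binds cytochrome c1, rose by 0.34 in Cre- mice (SE 0.0866, adjusted p = 0.0152 by edgeR's quasi-likelihood test), from 356.7, 464.1 and 495.6 CPM at 30°C to 481.0, 569.4 and 608.8 CPM at 8°C, with 5 of 6 cold mice above all warm mice. The annotated gene Gm12854 lies in the last 500 genomic bases of Uqcrh, but no exon of Uqcrh overlaps an exon of another gene. Uqcrc1, a core protein, and Uqcrq, a small subunit, rose by 0.35 each in Cre- mice. In BATdKO mice Uqcrc1 had 0.10 (SE 0.104), where warm mice already lay at 189.1, 214.7 and 240.4 CPM against 133.9, 162.4 and 205.9 CPM in warm Cre- mice, and Uqcr10, a small subunit, was called higher (0.30, SE 0.0858, adjusted p = 0.0418 by edgeR's quasi-likelihood test). Uqcrfs1, the Rieske iron-sulfur protein, had 0.66 and 0.54 with SE of 0.288 and 0.285 and was not called.

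Complex IV held the members with the largest called rises, and they were both forms of restricted tissue range. Cox7a1 was at 63.25, 122.6 and 186.0 CPM in Cre- 30°C and 181.3, 246.0 and 318.4 CPM in Cre- 8°C mice. In BATdKO mice it was at 70.45, 134.8 and 164.6 CPM at 30°C and 191.9, 242.7 and 333.3 CPM at 8°C. All 6 cold BATdKO mice and 5 of 6 cold Cre- mice were above every warm mouse of their genotype. The log2 rise was 1.04 in Cre- (SE 0.217, adjusted p = 0.00291 by edgeR's quasi-likelihood test) and 0.96 in BATdKO mice (SE 0.216, adjusted p = 0.00803), or 2.06-fold and 1.94-fold.

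Cox8b was at 53.38, 93.05 and 285.0 CPM in Cre- 30°C and 158.7, 303.6 and 342.6 CPM in Cre- 8°C mice. In BATdKO mice it was at 67.44, 213.9 and 246.1 CPM at 30°C and 268.3, 338.0 and 486.2 CPM at 8°C. The BATdKO ranges did not overlap, and in Cre- mice the warm range reached into the cold one through mouse 6, whose 285.0 CPM was the highest of the warm group. The log2 rise was 1.13 in Cre- (SE 0.303, adjusted p = 0.0214 by edgeR's quasi-likelihood test) and 0.90 in BATdKO mice (SE 0.299, adjusted p = 0.0863). Without both mice numbered 6 at 30°C these values were 1.56 and 0.72 for Cox8b and 1.19 and 0.83 for Cox7a1, and all 4 still passed the threshold. The Cox8b call in BATdKO mice was lost in 10 of the 24 fits that left out a single mouse, with an adjusted p of up to 0.17 by edgeR's quasi-likelihood test and a log2 value of at least 0.72. These were the fits without mouse 1, 2, 5 or 6 of BATdKO 30°C, mouse 1, 2, 3, 4 or 6 of BATdKO 8°C or mouse 6 of Cre- 8°C. In Cre- mice Cox8b, and in both genotypes Cox7a1, passed in all 24.

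The widespread partners did not pass the test. Cox7a2 had log2 values of 0.10 (SE 0.0819) and 0.16 (SE 0.0818), Cox8a 0.09 (SE 0.0971) and 0.06 (SE 0.0970) and Cox6a1 0.20 (SE 0.125) and 0.16 (SE 0.124) in Cre- and BATdKO mice, none was called, and under scaling by total counts Cox7a2 and Cox8a turned negative in both genotypes and Cox6a1 in BATdKO mice. Cox4i1, the widespread form of subunit 4, had 0.14 and 0.05. Cox6a2 was called lower in Cre- mice (-2.75, SE 0.933, adjusted p = 0.0818 by edgeR's quasi-likelihood test), from 0.00, 5.58 and 259.3 CPM to 0.00, 7.94 and 28.20 CPM. Its 2 highest values, 259.3 and 111.6 CPM, came from mice 3 and 1 of the Cre- 30°C group, whose muscle sums were 9758 and 4248 CPM, and without these mice the log2 value was 1.61 (adjusted p = 0.444). DESeq2 called no member lower in Cre- mice, and 13 higher.

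**Figure D2:**
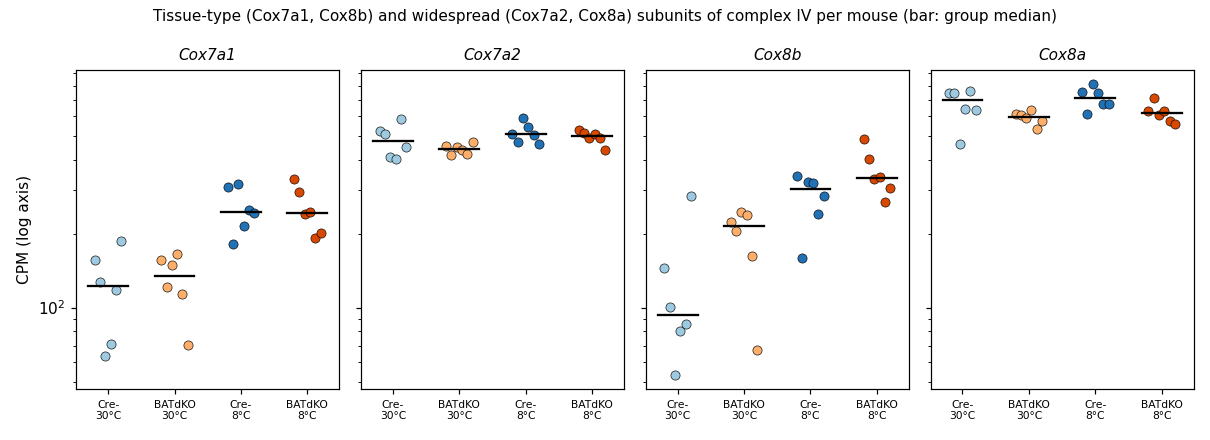
CPM of Cox7a1, Cox7a2, Cox8b and Cox8a in each mouse on a shared log axis, with the bar at the group median. Cox7a1 and Cox8b medians were higher at 8°C in both genotypes, whereas the medians of Cox7a2 and Cox8a differed less between the groups.

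The share of a gene in the tags of a pair of paralogs is taken within a library, so no scaling between libraries enters it. It is a share of tags, and whether both genes of a pair yield tags at the same rate per transcript was not tested. Cox7a1 made up 13.4 to 29.2% (median 18.4%) of the Cox7a1 and Cox7a2 tags in Cre- 30°C and 27.8 to 37.7% (median 33.6%) in Cre- 8°C mice, and 13.0 to 27.3% (median 23.6%) and 28.2 to 38.7% (median 32.7%) in BATdKO mice. The BATdKO ranges did not overlap and the Cre- ranges overlapped slightly. The log2 ratio rose by 1.04 in Cre- (two-sided exact permutation test, p = 0.00649, adjusted p = 0.026 over 16 tests of 4 groups of paralogs) and by 0.83 in BATdKO mice (exact permutation test, p = 0.00216, which is the smallest that 6 against 6 mice can give, adjusted p = 0.0115).

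Cox8b made up 10.1 to 30.8% (median 11.4%) of the Cox8b and Cox8a tags in Cre- 30°C, 20.6 to 31.2% (median 29.1%) in Cre- 8°C, 10.5 to 29.4% (median 25.9%) in BATdKO 30°C and 31.7 to 43.6% (median 35.5%) in BATdKO 8°C mice. Its log2 ratio rose by 1.23 with cold in Cre- mice (exact permutation test, p = 0.013, adjusted p = 0.0416) and by 0.94 in BATdKO mice (p = 0.00216, adjusted p = 0.0115). At 8°C the ratio was also higher by 0.57 in BATdKO than in Cre- mice (exact permutation test, p = 0.00216, adjusted p = 0.0115), with no overlap between the groups, and it stayed between 0.46 and 0.63 when each mouse was left out in turn. At 30°C the difference was 0.86 (exact permutation test, p = 0.0758, adjusted p = 0.173). Brown adipocyte sums at 8°C overlapped between the genotypes (2586 to 4810 against 2920 to 5677 CPM). Of the 11 markers in them 1, Adrb3, was called lower in BATdKO mice (-0.98, adjusted p = 0.059 by edgeR's quasi-likelihood test) and 0 higher, where 1.82% of all genes were called. By that test 2 markers were higher and 2 lower at an unadjusted p under 0.05, and 5 values were positive and 6 negative. The part of these markers in the ratio was not tested. For Cox6a2 against Cox6a1 the lowest adjusted p was 0.0749 by the exact permutation test, and for Atp5g1 against Atp5g2 and Atp5g3, which encode the same mature c subunit of ATP synthase, no adjusted p was under 0.281. These ratios were chosen after the data had been seen.

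The promoters of Cox7a1 and Cox8b are shown beside that of Cox8a because the first pair rose in the cold and the third did not pass the test. They lie at chr7:30183921-30184220 (plus strand), chr7:140900397-140900696 (minus strand) and chr19:7217567-7217866 (minus strand) on GRCm38.p6. None of the 4 motifs searched occurs in the Cox7a1 or Cox8b window. The window of Cox7a2, another widespread form that did not pass the test, holds none of them either. Capitals in Cox8a mark the reverse complement of CCGGAAG, present at 2 places.
Cox7a1: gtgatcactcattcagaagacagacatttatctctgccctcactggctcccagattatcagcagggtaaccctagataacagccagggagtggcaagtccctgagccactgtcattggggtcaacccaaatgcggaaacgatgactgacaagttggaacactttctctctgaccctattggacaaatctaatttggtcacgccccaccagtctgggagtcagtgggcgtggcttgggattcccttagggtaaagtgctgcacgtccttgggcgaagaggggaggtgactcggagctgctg
Cox8b: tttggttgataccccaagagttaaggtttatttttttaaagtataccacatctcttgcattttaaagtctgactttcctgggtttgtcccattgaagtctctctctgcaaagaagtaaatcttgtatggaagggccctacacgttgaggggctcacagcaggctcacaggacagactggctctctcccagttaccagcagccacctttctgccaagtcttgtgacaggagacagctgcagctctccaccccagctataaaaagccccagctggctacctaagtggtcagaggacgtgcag
Cox8a: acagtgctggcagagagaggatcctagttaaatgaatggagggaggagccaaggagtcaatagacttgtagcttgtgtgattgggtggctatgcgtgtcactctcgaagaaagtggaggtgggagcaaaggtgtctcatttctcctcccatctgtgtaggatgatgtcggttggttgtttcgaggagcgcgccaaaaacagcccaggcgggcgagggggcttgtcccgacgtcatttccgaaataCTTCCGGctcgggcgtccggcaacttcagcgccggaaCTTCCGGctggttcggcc

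RefSeq windows of 300 bases were found for 65 of the 80 genes. On either strand GCATGCGC (NRF1) occurred in 10 of them (15.4%, against 2.71% of all 32851 windows), CCGGAAG (ETS) in 15 (23.1%, against 8.86%), AAGATGGCG (YY1) in 6 (9.23%, against 1.4%) and AAGGTCA (the estrogen-related receptor element) in 8 (12.3%, against 4.72%). The 65 windows are 1 per gene, whereas the 32851 are all RefSeq windows, so these shares come from unlike sets. For 52 of the 65 the RefSeq start lay within 100 bases of the GENCODE start of the gene. The others lay further away, up to 3643 bases in Atp5d. The window of Atp5g2, which holds an NRF1 match, was at 1305 bases. Of the 6 YY1 matches 5 were in complex I genes, which held 32 of the 65 windows. At least 1 of the motifs occurred in 30 windows and none in 35, which says only that these letters are absent from those windows. Of the 6 members called higher with cold in both genotypes, 1 held the NRF1, 1 the ETS and 1 the YY1 motif. The estrogen-related receptor element was in 0 of the 6. A match is a description of sequence and no evidence of binding.

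Complex V had medians of 0.11 in Cre- and 0.21 in BATdKO mice, with all 16 genes positive in BATdKO mice under TMM scaling. Atp5a1, the alpha subunit of the catalytic head, rose by 0.40 in Cre- mice (SE 0.103, adjusted p = 0.0170 by edgeR's quasi-likelihood test), from 349.8, 483.1 and 524.5 CPM to 502.3, 639.0 and 678.3 CPM, and 5 of 6 cold mice were above all warm ones. Its value in BATdKO mice was 0.25 (adjusted p = 0.198). Atp5b, the catalytic beta subunit, had 0.50 in Cre- (adjusted p = 0.103) and was called higher in BATdKO mice (0.54, SE 0.178, adjusted p = 0.0870 by edgeR's quasi-likelihood test), from 211.6, 390.9 and 483.0 CPM to 365.7, 525.1 and 712.3 CPM. Both values lay near the threshold. When each mouse was left out in turn, the BATdKO call was lost in 11 of 24 fits (adjusted p of up to 0.2 by edgeR's quasi-likelihood test), those without mouse 2, 3, 5 or 6 of BATdKO 30°C, mouse 1, 2, 3, 4 or 6 of BATdKO 8°C, mouse 2 of Cre- 30°C or mouse 6 of Cre- 8°C, and Atp5b was called in Cre- mice in 7 of 24. Atp5mpl, a small membrane subunit, was called higher in BATdKO mice by 0.29. Atp5g1 had the most negative value of the complex in Cre- mice, -0.26 (adjusted p = 0.192).

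The members called in the cold were partly shared. Cox7a1, Cox8b, Ndufa11, Ndufa12, Ndufs4 and Ndufs8 were called higher in both genotypes, 6 genes or 50% of each list of 12, from comparisons that share no mouse. Of these 6 only Cox7a1 and Ndufa11 were called in both genotypes in every one of the 24 fits that left out a single mouse. In BATdKO mice the call was lost in 10 fits for Cox8b, 8 for Ndufs4 (adjusted p of up to 0.189 by edgeR's quasi-likelihood test) and 5 for Ndufa12 (up to 0.145), and in Cre- mice in 5 for Ndufs8 (up to 0.168) and 1 for Ndufs4 (0.124). Of the 12 rises 7 in Cre- and 5 in BATdKO mice were called in all 24 fits. The other losses in Cre- mice were Sdha in 5 fits, Uqcrq in 3 and Uqcrc1 in 1, and in BATdKO mice Atp5b in 11, Ndufv3 in 9, and Ndufb7 and Uqcr10 in 2 each. The Cre- fit without mouse 3 of the 30°C group lost all of Ndufs4, Ndufs8, Sdha, Uqcrq and Uqcrc1, at log2 values of 0.23 to 0.32, and every BATdKO fit that lost Ndufs4 or Ndufa12 left out a mouse labelled BATdKO. The Cox6a2 call in Cre- mice was lost in 7 of 24 fits. Of the 80 genes 64 were positive in both. Across genes, which share libraries and are not independent, Pearson's r of the log2 changes was 0.88, and it was 0.67 without Cox6a2 and 0.53 without Cox6a2, Cox7a1 and Cox8b. The difference between genotypes in the cold response, tested as an interaction, was called for 0 of 80 members (0.0961% of all genes) by edgeR's quasi-likelihood test, with 2 at an unadjusted p under 0.05, and for 0 by DESeq2, with 1 unadjusted. These 2 were Ndufs1 (-0.36, SE 0.149, adjusted p = 0.542) and Atp5g1 (0.33, SE 0.158, adjusted p = 0.616). Of all 12485 genes tested, 1005 were at an unadjusted p under 0.05 for the interaction by edgeR. For 48 of the 80 genes the 95% interval of the interaction lay within 0.5 log2 units of 0.

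**Figure D3:**
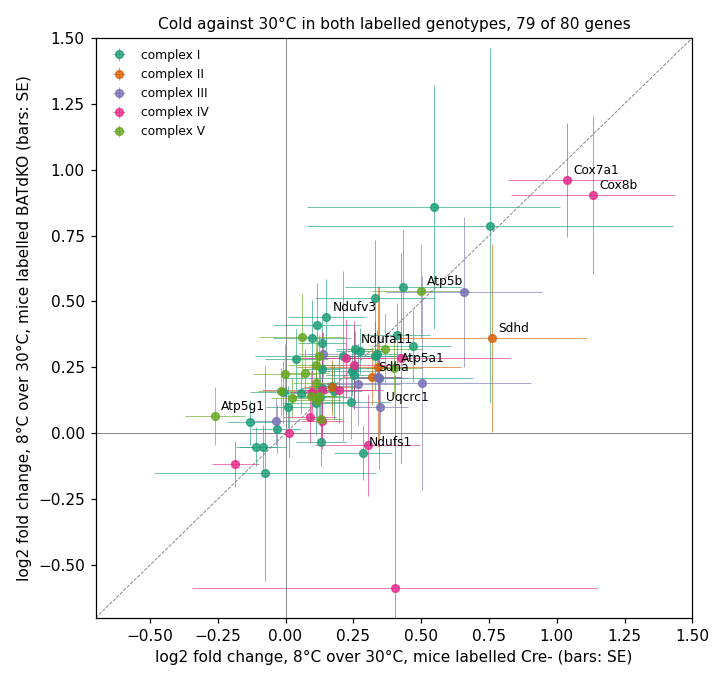
Log2 fold change of 8°C over 30°C in Cre- mice (horizontal axis) and BATdKO mice (vertical axis) for 79 genes, coloured by complex, with SE bars, some of which run past the frame. Cox6a2 (-2.75 and -2.28) lies outside the axes, Cox7a1 and Cox8b lie apart at the upper right, and most of the other points lie in the upper right quadrant under TMM scaling.

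Between labelled genotypes at 8°C no member was called, by edgeR's quasi-likelihood test (0 of 80, where 1.82% of all genes were called), with 6 at an unadjusted p under 0.05, and by DESeq2 0, with 7 unadjusted. Of all 12485 genes tested, 1153 were at an unadjusted p under 0.05 by edgeR. The median log2 fold change, BATdKO over Cre-, was -0.02, beside 0.00 for all genes. For 61 of the 80 genes the 95% interval lay within 0.5 log2 units of 0, and the 19 others include the low or variable genes such as Cox5a, Cox6a2, Ndufb3, Ndufb6 and Sdhd. Ndufs1, the largest core subunit of complex I, had the smallest p. It was at 80.95, 105.4 and 124.8 CPM in Cre- 8°C and 78.77, 83.56 and 99.77 CPM in BATdKO 8°C mice. The ranges overlapped, with mouse 2 of the Cre- group at 80.95 CPM and the other 5 above all BATdKO mice. The log2 difference was -0.32 (SE 0.105, 95% interval -0.54 to -0.10, adjusted p = 0.178 by edgeR's quasi-likelihood test), and its adjusted p ran from 0.0562 (without that mouse) to 0.420 when each mouse was left out. With cold Ndufs1 had 0.29 (adjusted p = 0.118) in Cre- and -0.07 (adjusted p = 0.793) in BATdKO mice. An exon of Ndufs1 overlaps Eef1b2 and Ino80dos on the other strand. The study names Ndufs1 among genes repressed in BATdKO mice in the cold, from fewer mice per group and after outliers were removed.

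**Figure D4:**
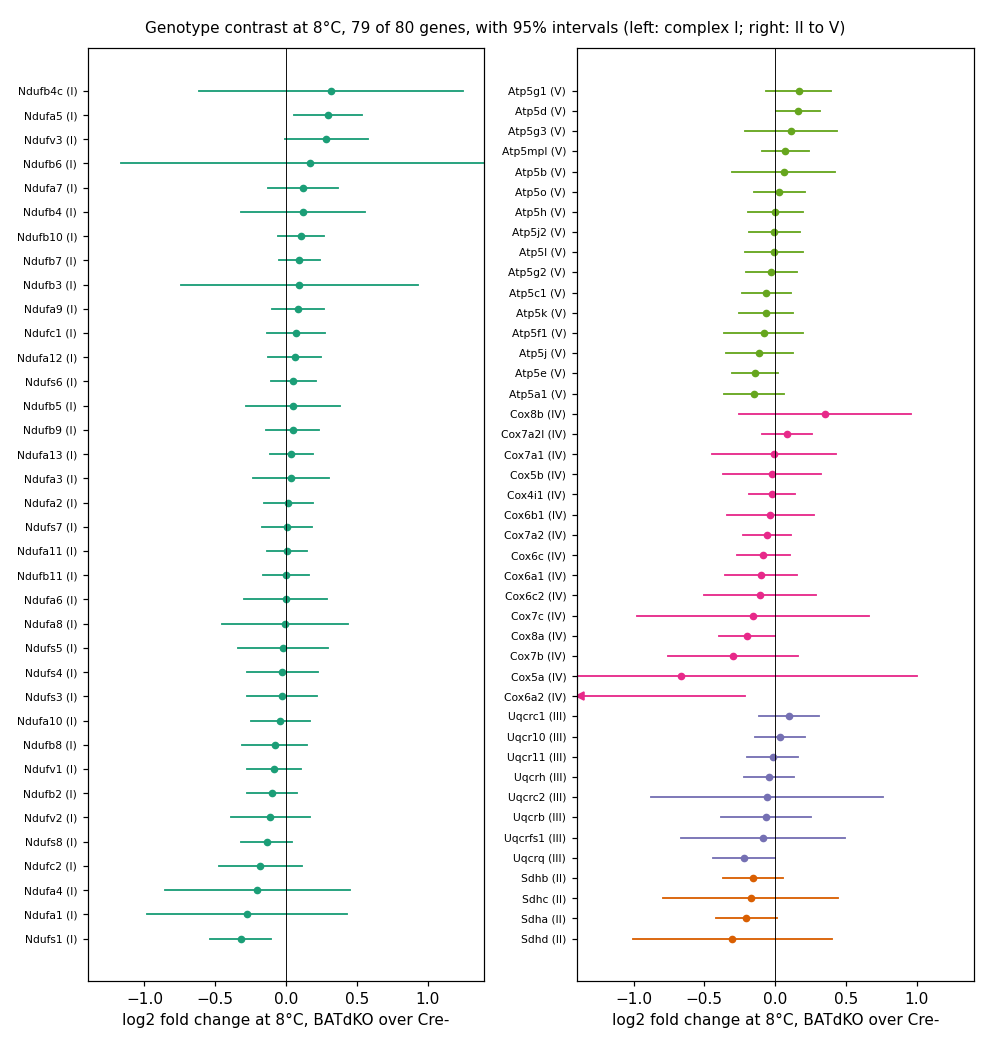
Log2 fold change of BATdKO over Cre- at 8°C for 79 of the 80 genes with 95% intervals, complex I on the left and complexes II to V on the right, coloured by complex. Intervals that exclude 0 belong to 6 genes, none of which passed adjustment over all genes, and the arrow marks Cox6a2 at -3.18, beyond the axis.

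By complex the medians at 8°C were 0.01 for complex I, -0.19 for complex II, -0.05 for complex III, -0.08 for complex IV and -0.01 for complex V. All 4 complex II genes (from -0.16 to -0.30) and 13 of 15 complex IV genes were negative, and none was called. Ndufa5, an accessory subunit, had 0.30, Uqcrq -0.22, Cox8a -0.20, Atp5d, the delta subunit of the central stalk, 0.16 and Cox6a2 -3.18, with adjusted p between 0.326 and 0.535 by edgeR's quasi-likelihood test. Muscle markers had negative values in the same comparison (18 of 18 negative, 0 called by edgeR and 1 by DESeq2, 14 and 16 at an unadjusted p under 0.05), beside the Cox6a2 value, and their part in it was not tested.

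At 30°C 0 of 80 members were called between genotypes by edgeR's quasi-likelihood test (0.0% of all genes), with 4 at an unadjusted p under 0.05, and 0 by DESeq2, with 6 unadjusted. By edgeR 1303 of the 12485 genes tested were at that unadjusted level. The median was -0.03, and 58 genes had 95% intervals within 0.5 log2 units of 0. Cox6a2 had -3.65 (adjusted p = 0.162), which became 0.71 without the muscle-rich mice, Uqcrc1 0.34 (SE 0.104, adjusted p = 0.210), Atp5j, a subunit of the stalk whose exons overlap Gabpa, -0.34 and Atp5g2 -0.20. Without mouse 6 of the Cre- group, or without both mice numbered 6, 3 members passed the threshold, Cox8b and Uqcrc1 higher and Cox6a2 lower, where 2.95% and 4.0% of all genes passed it.

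Other genes of the pathway were also called in the cold comparisons. Cytochrome c (Cycs) rose in the cold by 0.52 in Cre- and 0.55 in BATdKO mice, and of the 4 further chain genes (Cyc1, Cycs, Ndufab1 and Atpif1) it was the only one called by edgeR (DESeq2 called 2 in Cre- mice). Of the 13 subunits encoded in mitochondrial DNA, 9 were called higher in Cre- and 10 in BATdKO mice, with medians of 0.62 and 0.51, and 0 in either genotype comparison (by edgeR's quasi-likelihood test with 1 at an unadjusted p under 0.05 at 8°C and 0 at 30°C, and by DESeq2 with 2 and 0). Between genotypes edgeR called 1.82% of all genes at 8°C and 0.0% at 30°C. Of 40 measured assembly factors 5 rose and 1 fell in Cre- mice and 3 rose and 1 fell in BATdKO mice, where 5.57% and 3.76% of all genes were called higher and 3.59% and 3.31% lower in the respective genotype. Ndufaf4, an assembly factor of complex I, rose by 0.65 and 0.48, Uqcc2, of complex III, by 0.55 and 0.49, and Cox19, of complex IV, by 0.50 and 0.30, whereas Cox14, of complex IV, fell by 0.27 and 0.43. Of 10 measured regulators Ppargc1a, a coactivator of mitochondrial biogenesis, rose in both genotypes (1.27 and 0.95), and Ppargc1b and Gabpa in Cre- mice (0.49 and 0.53). Assembly factors and regulators had 0 calls between genotypes at either temperature by edgeR's quasi-likelihood test and by DESeq2, and with both tools 6 and 2 assembly factors and 1 and 2 regulators were at an unadjusted p under 0.05 at 8°C and 30°C. With 1.82% and 0.0% of all genes called by edgeR, counts of 0 do not set these short lists apart. Of the 12485 genes tested, 1153 and 1303 were at an unadjusted p under 0.05 by edgeR.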

How the data were processed

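Libraries of 24 mice were made with the QuantSeq 3′ FWD kit. The authors used BBDuk for trimming, STAR for alignment to GRCm38 and Rsubread for gene totals, and the deposited values are raw counts without normalization. Whether reads were counted by strand and the annotation release are not given in the sources used here. Of 12615 genes 12608 were matched to symbols by Ensembl identifier, and positions are from GENCODE vM21.

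Tests used edgeR 4.0.16 with limma 3.58.1 in R 4.3.3. After TMM normalization and filterByExpr (130 genes removed) a quasi-likelihood model with a mean per group was fitted to all 24 libraries, with Benjamini-Hochberg adjustment over 12485 genes and a threshold of 0.1. SE came from the F statistic. Paralog ratios were log2 ratios of raw counts within a library (pseudocount 0.5) with exact permutation tests, adjusted over 16. Alternatives were DESeq2 1.42.0, RLE, total count scaling, no filter, robust dispersion, only the groups compared, a threshold of 0.05 and leaving out each mouse. Leaving out both mice numbered 6 or both muscle-rich mice, scaling without mitochondrially encoded genes and the ratios were added after the data had been seen. Members and lists were chosen with earlier results of these data known. Genes given with values are core subunits, paralogs, the members with the smallest p of each complex and direction, and every called member. A result that this rule covers is not reported here. The self-test ran on simulated counts.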

Additional observations from a re-analysis of the deposited data

Results flagged for a closer look

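Among 172 sets of 6 mice (38 genes and 5 complex medians, each in 4 groups), 9 held a mouse set apart from the rest by the gap criterion for 6 samples, and chance alone gives about 1 in 20 groups of values. Atp5d was at 327.3 CPM in mouse 5 of BATdKO 30°C against 307.8 to 313.1 CPM in the others. Atp5mpl was at 261.5 CPM in mouse 3 of Cre- 8°C against 189.7 to 209.5 CPM. Cox6a2, the muscle form, was at 14.63 CPM in mouse 2 of BATdKO 30°C against 1.051 to 4.925 CPM. Cox7a2l was at 101.1 CPM in mouse 4 of Cre- 30°C, the library of lowest depth, against 136.8 to 152.1 CPM, and at 165.1 CPM in mouse 4 of BATdKO 30°C against 129.9 to 142.9 CPM. Sdhd was at 21.35 CPM in mouse 1 of BATdKO 8°C against 5.673 to 10.39 CPM. Uqcrh was at 481.0 CPM in mouse 2 of Cre- 8°C against 565.0 to 608.8 CPM and at 452.5 CPM in mouse 6 of BATdKO 8°C against 549.7 to 592.9 CPM. Uqcrq was at 380.8 CPM in mouse 3 of Cre- 30°C against 503.8 to 569.4 CPM.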

How the results depend on the processing

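No paired analysis was possible because the mouse numbers only name samples within a group. The number of members called in the genotype comparison at 8°C was 0, and it was 1 under total count scaling (Ndufs1, lower), 2 with only the groups compared or without the muscle-rich mice (Cox6a2 and Ndufs1, lower) and 0 to 1 when each mouse was left out. Of all genes, 67 of 12485 were called higher and 229 lower there under total count scaling. With only the groups compared 171 of 11892 were called higher and 306 lower, and without the muscle-rich mice 112 of 12515 higher and 241 lower. At 30°C the number of members called was 3 without both mice numbered 6, where 295 genes in all were called higher and 205 lower against 0 with every mouse, and 0 to 3 over single mice left out (1 without mouse 2 and 3 without mouse 6 of Cre- 30°C). With cold in Cre- mice it was 13, and 21 without the mice numbered 6, 7 without the muscle-rich mice and 7 to 18 over single mice left out. With cold in BATdKO mice it was 12, and 5 under total count scaling, 2 under that scaling without mitochondrially encoded genes, 7 at the threshold of 0.05 and 6 to 18 over single mice left out, with 6 or 7 when mouse 2 or 5 at 30°C or any of mice 1 to 4 at 8°C was left out. Without mitochondrially encoded genes in the total, 261 of 12439 genes were called higher and 1317 lower. In the fits with 6 or 7 members, 321 to 369 of all genes were called higher, against 470 with every mouse. The interaction count was 0 under every alternative run.

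Signs turned for Cox6a2 without the muscle-rich mice (0.71 between genotypes at 30°C and 1.61 with cold in Cre- mice), under total count scaling for Cox7a2 (-0.08 and -0.04) and Cox8a (-0.09 and -0.13) with cold in Cre- and BATdKO mice and Cox6a1 (-0.03) in BATdKO mice, and without mitochondrially encoded genes in the total for Cox8a (-0.05) in BATdKO mice. Over single mice left out Atp5d at 30°C ran from 0.00 to 0.09, Cox8a with cold in Cre- mice from 0.00 to 0.13 and Uqcr11 from -0.10 to 0.00. DESeq2 called 13 and 11 members in the cold and made 90 calls between genotypes at 30°C (48 higher, 42 lower), 0 of them members. The causes were not tested. Intervals were wide for Cox5a, Uqcrc2, Ndufb6 and Sdhd, and the part of depth in this was not tested. Ndufb6 was at 6.834 CPM in the library of lowest depth and at 0.1351 CPM in mouse 3 of the same group.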
